A study of Mus musculus with 61 samples.

Results

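Oocyte transcription regulators of early follicles are described here through 7 genes, Figla, Nobox, Sohlh1, Sohlh2, Lhx8, Taf4b and Tbpl2. Chosen by name, they make up 7 of the 23927 gene rows of the table, and all 7 rows were found. The table holds 61 libraries, each made from 1 cell of a wild-type CD-1 mouse ovary at postnatal day 5, taken 6 hours after an intraperitoneal injection. There were 16 oocytes and 16 granulosa cells after solvent, and 16 oocytes and 13 granulosa cells after doxorubicin, a chemotherapy drug that breaks DNA. Its dose, given in the series text as 10 mg/kb, is uncertain because that unit is no dose. The labels name no animal, litter, clone or follicle stage, so each group counts as 1 sample and no difference between groups was tested. Intervals given below cover counting error only, and cells of a group describe that group's spread without being replicates.

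Background for these genes comes from mouse genetics. SOHLH1 and SOHLH2 are basic helix-loop-helix proteins of germ cells that act early in the network, and LHX8 is a LIM-homeodomain protein that works with them. NOBOX is an oocyte homeodomain protein needed when resting follicles start to grow, and FIGLA is a basic helix-loop-helix protein needed for follicles to form and for the zona pellucida genes. TAF4B is a relative of TAF4, a subunit of the general transcription factor TFIID, with a role in germ cells. TBPL2 is the relative of the TATA-binding protein TBP that takes over in growing oocytes. All have roles in the oocyte, without each being confined to it: Taf4b was also counted in granulosa libraries with few oocyte markers. The surrounding granulosa cells feed and signal to the oocyte.

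Depth was alike across groups, with 6834594 to 31262609 counts per cell and group medians between 10826423 and 11478173. The 16 oocyte markers summed to between 17202 and 67914 CPM (counts scaled by the library's total) in the 32 oocyte libraries. Granulosa markers (19 genes) summed to at most 839 CPM in control oocytes, and reached 3648, 2915 and 2296 CPM in doxorubicin oocytes 9, 11 and 12. Several granulosa libraries went against their label: in 3 of the 16 control and 8 of the 13 doxorubicin libraries the oocyte markers summed to more than the granulosa markers. Stroma markers exceeded granulosa markers in control libraries 2, 8, 13, 14 and 16 and in doxorubicin library 13, and blood and immune markers did in doxorubicin library 15, at 33378 CPM. Granulosa markers were thus above those of every other listed cell type in 11 of 16 control and 3 of 13 doxorubicin libraries. Of 8 stroma markers 4 were past 2-fold downward in doxorubicin over control granulosa libraries, with a median log2 ratio of -1.42. Of all 12194 genes tested in that comparison 40.6% passed in either direction, and 20.6% upward. All 6 p53 target genes read as a check of the drug label lay more than 2-fold higher in the summed doxorubicin oocytes, with a median log2 ratio of 2.96. Not every cell showed this. Their sum spanned 144 to 266 CPM in control oocytes, and doxorubicin oocytes 2, 8, 15 and 16 stood at 264, 199, 203 and 133 CPM.

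On GRCm38, per GENCODE M21, the genes lie at chr6:86016171-86020996 (Figla, plus strand), chr6:43303674-43309554 (Nobox, minus), chr2:25842995-25847248 (Sohlh1, minus), chr3:55182028-55209957 (Sohlh2, plus), chr3:154306294-154330659 (Lhx8, minus) and chr2:24071721-24096595 (Tbpl2, minus). Taf4b overlaps 1 annotated processed pseudogene on the same strand, so how its reads were divided is uncertain. The other 6 overlap no annotated gene.

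The promoter letters of 4 of the genes are shown because SOHLH1 and SOHLH2 belong to the protein family that binds the E-box (CANNTG), and because Sohlh1, Sohlh2 and Lhx8 varied together in doxorubicin oocytes while Nobox was the most abundant of the set. RefSeq windows on GRCm38.p6 (the build of mm10, which the submitters' processing notes name) were matched for 6 of the 7 genes, all but Taf4b. Each line gives the strand on which the gene is read, 5′ to 3′, ends at the gene's start, and has E-boxes in capitals. The Sohlh2 and Lhx8 lines stop 16 and 99 bases short of the RefSeq start, where the GENCODE M21 annotation already has an exon.
Sohlh1, minus strand, chr2:25847249-25847498: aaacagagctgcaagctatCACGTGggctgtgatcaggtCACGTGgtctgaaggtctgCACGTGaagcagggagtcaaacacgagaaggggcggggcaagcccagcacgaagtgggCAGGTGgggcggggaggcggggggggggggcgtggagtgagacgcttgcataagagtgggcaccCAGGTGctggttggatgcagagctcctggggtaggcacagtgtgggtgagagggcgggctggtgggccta
Sohlh2, plus strand, chr3:55181794-55182027: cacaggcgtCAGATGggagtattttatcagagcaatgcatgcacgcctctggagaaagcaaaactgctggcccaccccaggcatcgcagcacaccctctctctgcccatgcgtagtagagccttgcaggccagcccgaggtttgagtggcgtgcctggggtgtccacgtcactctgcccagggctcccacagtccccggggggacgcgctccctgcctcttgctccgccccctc
Lhx8, minus strand, chr3:154330660-154330810: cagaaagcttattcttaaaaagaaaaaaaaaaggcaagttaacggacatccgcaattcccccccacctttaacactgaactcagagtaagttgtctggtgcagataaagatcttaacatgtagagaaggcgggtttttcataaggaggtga
Nobox, minus strand, chr6:43309555-43309804: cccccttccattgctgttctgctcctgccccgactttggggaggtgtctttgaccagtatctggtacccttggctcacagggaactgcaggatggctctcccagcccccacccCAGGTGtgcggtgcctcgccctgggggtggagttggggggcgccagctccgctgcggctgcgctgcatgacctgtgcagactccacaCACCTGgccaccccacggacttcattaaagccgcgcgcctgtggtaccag

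Over the full 250 bases before the start, Sohlh1 held 5 E-boxes, of which 3 read CACGTG, with first letters 231, 211 and 192 bases before the start. CACGTG stood at least 3 times in 20 of the 32851 windows of the same length, or 0.0609% of them, and at least once in 6.02%. Nobox had 2 E-boxes, CAGGTG and CACCTG, at 137 and 50 bases, Sohlh2 had 1 and Lhx8 had none, which makes these promoters unlike in this respect. Figla held 2 and Tbpl2 held 4. The Figla window, chr6:86016941-86017190 on the plus strand, precedes the RefSeq start but lies inside the gene as GENCODE M21 annotates it. An E-box of any kind was present in 66.2% of all windows, with a median of 1, so its presence alone set none of them apart. Each motif was searched on both strands, and CACGTG and CAGGTG are themselves E-boxes. None of the 6 windows held TAATTG or TGATTG, letters that homeodomain proteins can bind (in 7.17% and 12.7% of all windows), nor TATAAA or TTTAAA (12.4% and 12.1%). Bases G and C made up 64.4% to 67.2% of the Figla, Nobox, Sohlh1 and Sohlh2 windows, above the upper quartile of all windows (61.2%), and 52.8% and 46% of those of Tbpl2 and Lhx8.

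Every oocyte library contained all 7 transcripts: each gene reached at least 5 counts in 16 of 16 control and 16 of 16 doxorubicin oocytes. To compare genes, counts were divided by the length of the longest annotated transcript and rescaled to the same total in every group, which gives a level per length. In control oocytes Nobox was highest at 2702, followed by Figla at 1395 and Sohlh1 at 1279, then Lhx8 at 251, Sohlh2 at 229, Tbpl2 at 139 and Taf4b at 27.9. The homeobox gene Nobox thus headed the order and the TFIID subunit gene Taf4b closed it. Neighbours in this order mostly overlapped: Nobox exceeded Figla in 15 of 16 control cells, but Figla exceeded Sohlh1 in 10 of 16 and Lhx8 exceeded Sohlh2 in 9 of 16. Among neighbours, only Sohlh1 and Lhx8 had ranges over cells that were fully apart, in both treatments. Dividing by merged exon length instead exchanged Figla with Sohlh1 in control oocytes, and Lhx8 with Sohlh2 in both treatments.

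The specialised members of the basal machinery exceeded their general relatives in oocytes. Tbpl2 had a level per length of 139 in control oocytes against 10.4 for Tbp, the general TATA-binding protein gene, and cells ranged from 50.04 to 224 for Tbpl2 and from 4.10 to 16.3 for Tbp. These ranges did not overlap. In summed control granulosa libraries the order was the opposite, with Tbp at 13.1 and Tbpl2 at 1.27, while Taf4b (9.03) stayed above Taf4 (2.10). Both Taf4b and Taf4 were near 0 in the median library, at 0.0374 and 0. Taf4b reached 5 counts in 7 of 16 of these libraries. Taf4b stood at 27.9 in control oocytes against 1.21 for Taf4, with cells between 3.55 and 52.5 for Taf4b and between 0 and 6.54 for Taf4, so these ranges overlapped. After doxorubicin the 4 levels per length in oocytes were 95.5 for Tbpl2, 12.3 for Tbp, 27.6 for Taf4b and 1.24 for Taf4. Tcf3, which encodes the E proteins that pair with FIGLA, had a level per length of 113 in control oocytes, and the related Tcf12 had 20.9.

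**Figure D1:**
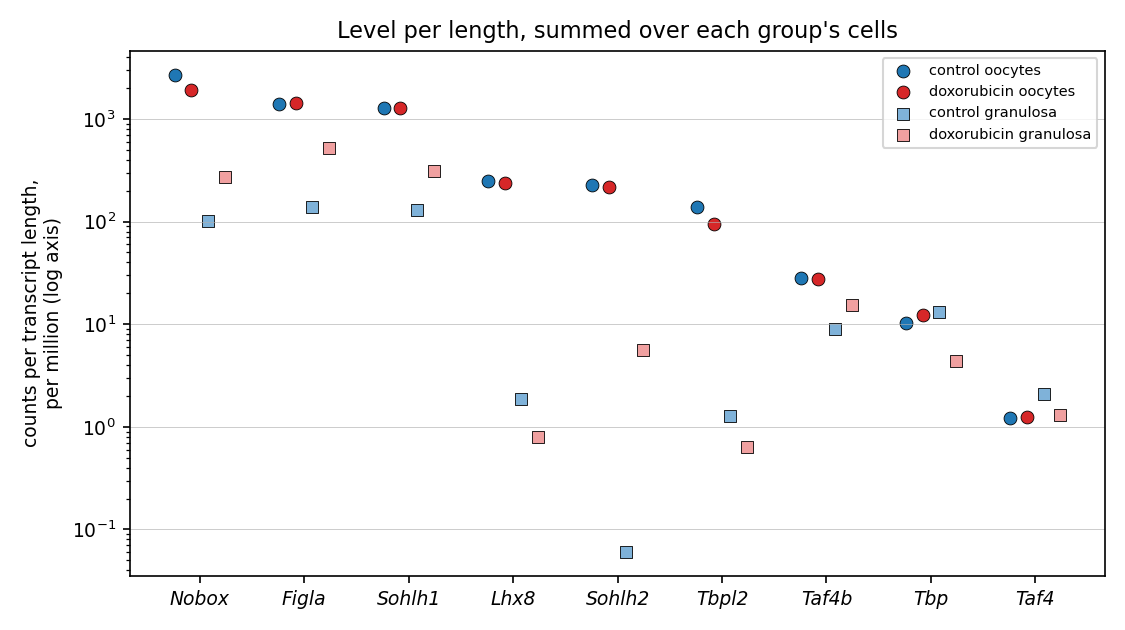
Level per length (counts per length of the longest transcript, rescaled to the same total in every group, log axis) of the 7 genes and of Tbp and Taf4, summed over the cells of each group. In oocytes (circles) Nobox stands highest and Tbpl2 and Taf4b lie above Tbp and Taf4, while in granulosa libraries (squares) Sohlh2, Lhx8 and Tbpl2 are far below their oocyte levels.

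Control oocytes differed from each other less in the helix-loop-helix genes than in Tbpl2 and Taf4b. The coefficient of variation of CPM over 16 control oocytes was 16.1% for Sohlh1, 18.9% for Sohlh2, 24.7% for Nobox, 27.7% for Figla and 32.7% for Lhx8. Tbpl2 varied by 40.3% and Taf4b by 53.5%. The median over the 4591 genes with at least 50 CPM was 29.5%, so Sohlh1 and Sohlh2 lay below its lower quartile of 22.4% and Tbpl2 and Taf4b above its upper quartile of 38.7%. Tbpl2 and Taf4b also had the lowest CPM of the 7, at 82.4 and 62.0, and the part of that in their spread was not tested. In doxorubicin oocytes the coefficients were 25.3% for Sohlh1, 27.7% for Sohlh2, 20.2% for Nobox, 28.9% for Figla, 37.7% for Lhx8, 41.4% for Tbpl2 and 55.7% for Taf4b, against a median of 34.2%.

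At 6 hours after doxorubicin none of the 7 genes had moved 2-fold in oocytes, in either direction. Nobox and Tbpl2 were the lowest relative to control oocytes, at log2 ratios of -0.44 and -0.49, and the other 5 lay between -0.04 and 0.09. The filter of 5 CPM in 1 group or the other left 11119 genes, of which 8.75% passed a 2-fold difference, 6.3% upward and 2.45% downward. The median of the 7 ratios was -0.03, against 0.01 over all genes tested. Groups of cells overlapped for all 7 genes, as they did for every other gene tested.

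Nobox, the homeodomain gene, had a lowest, median and highest level of 1206, 2158 and 3129 CPM in control oocytes and of 1100, 1566 and 2404 CPM in doxorubicin oocytes. The upper part of the control range was empty after the drug, while the lower ends were close, with 1 doxorubicin oocyte below the lowest control. Its summed level was 2206 CPM in control and 1624 CPM after the drug, a ratio of 0.736 and a log2 ratio of -0.44 (95% counting interval -0.45 to -0.43). A doxorubicin oocyte exceeded a control oocyte in 20.7% of all pairs of cells. Leaving out any 1 cell kept the log2 ratio between -0.49 and -0.40, and the difference of cell medians was -0.46.

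Tbpl2, the TBP relative, had a lowest, median and highest level of 29.1, 71.1 and 132 CPM in control and of 25.1, 61.8 and 99.1 CPM in doxorubicin oocytes. Below the lowest control oocyte lay 3 doxorubicin oocytes, and none above the highest. Summed counts gave 82.4 CPM in control and 58.6 CPM after the drug, a log2 ratio of -0.49 (-0.53 to -0.46), but the difference of cell medians was only -0.20. Tbp, with a log2 ratio of 0.30, lay in the other direction.

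Figla had a lowest, median and highest level of 194, 448 and 722 CPM in control and of 310, 473 and 742 CPM in doxorubicin oocytes. Both groups cover nearly the same range, and the log2 ratio of the sums was 0.09 (0.08 to 0.11). Sohlh1 ranged from 494 through a median of 697 to 902 CPM in control and from 394 through 766 to 1073 CPM in doxorubicin oocytes. Its range was wider at both ends, with 2 doxorubicin oocytes above the highest control and 2 below the lowest, and the log2 ratio was 0.05 (0.03 to 0.06).

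Sohlh2 stood at 152, 240 and 303 CPM (lowest, median, highest) in control and at 77.5, 232 and 308 CPM in doxorubicin oocytes, a log2 ratio of -0.03 (-0.05 to -0.01). The low value belongs to doxorubicin oocyte 9, 1 of the 3 with many granulosa transcripts, and without it the ratio was 0.02. Lhx8 stood at 105, 219 and 323 CPM in control and at 95.3, 213 and 339 CPM in doxorubicin oocytes, a log2 ratio of -0.04 (-0.06 to -0.02). Above its control range lay 3 doxorubicin oocytes, and below it 3 more. Taf4b spanned the widest range, from 8.58 through 59.8 to 119 CPM in control and from 5.22 through 59.9 to 146 CPM in doxorubicin oocytes, a log2 ratio of 0.03 (-0.01 to 0.06).

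With doxorubicin oocytes 9, 11 and 12 left out, the median of the 7 log2 ratios was 0.0036. Nobox and Tbpl2 stayed on the lower side of control in all alternatives run, between -0.49 and -0.39 for Nobox and between -0.61 and -0.20 for Tbpl2. Fewer transcripts of a gene per oocyte and a larger share of other transcripts cannot be told apart in CPM.

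**Figure D2:**
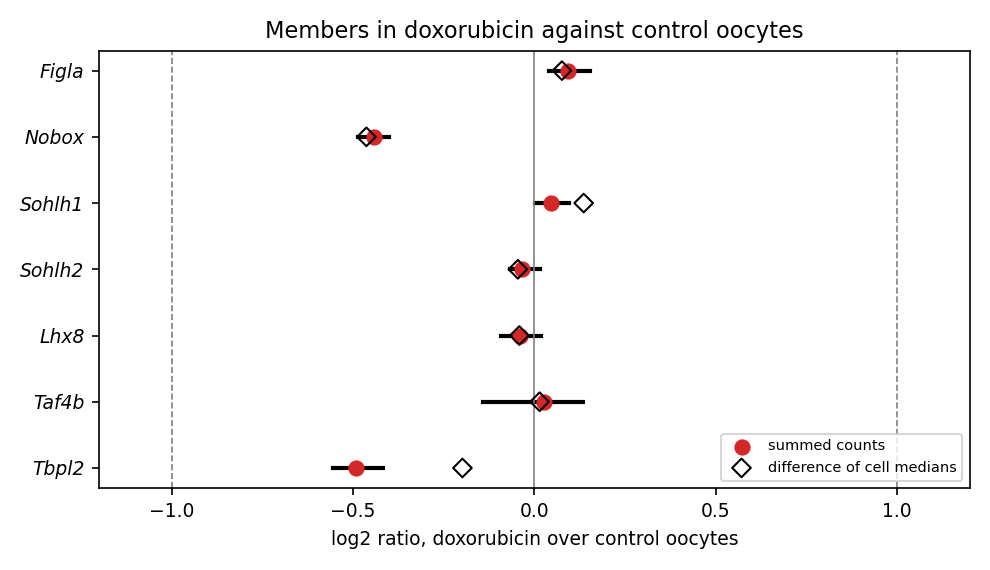
Log2 ratio of doxorubicin over control oocytes for each gene, from summed counts (red points), with the range over leaving out each cell in turn (black lines) and the difference of cell medians (diamonds). Dashed lines mark a 2-fold difference, which none of the 7 genes reaches. Nobox and Tbpl2 lie to the left of 0 under both measures.

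The genes these factors are known to drive lay mostly below control in doxorubicin oocytes. The zona pellucida genes, textbook targets of FIGLA, had log2 ratios of -0.48 for Zp1, -0.52 for Zp2 and -0.25 for Zp3, although Figla itself was at 0.09. Over the FIGLA target list 0 of 5 tested genes passed 2-fold and all 5 ratios were below 0, with a median of -0.31. Over the NOBOX target list 2 of 8 passed downward, against 2.45% of all genes, and all 8 were below 0, with a median of -0.62. Those 2 were Bmp15, a growth factor that oocytes secrete, at -1.41, and Rspo2, a WNT pathway enhancer, at -1.04. Gdf9, the growth factor that acts beside BMP15, was at -0.77 and Pou5f1, a germline homeodomain factor, at -0.56. Over the list of LHX8 and SOHLH targets 0 of 6 passed and 2 of 6 were above 0, with a median of -0.26 and with Kit, the oocyte receptor for KIT ligand, at 0.01. Oocyte markers as a whole did so too: 3 of 15 tested were above 0, with a median of -0.31.

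Per cell, Gdf9 was below the control range in 4 doxorubicin oocytes and Zp2 in 6. Bmp15 had a summed level of 36.6 CPM in control and 13.8 CPM after the drug, and leaving out any 1 cell kept its log2 ratio between -1.59 and -1.30. Rspo2 depended on 1 library, since without control oocyte 16 its ratio was -0.89, short of 2-fold. The target lists overlap with each other and with the oocyte markers, so their medians are not separate observations.

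Among partner genes above the 5 CPM filter none showed a 2-fold difference in doxorubicin oocytes. Of all 11119 genes tested only 8.75% did, so a 0 in lists this short does not set them apart. Of the E protein genes 0 of 3 passed, with Tcf3 at -0.06 and Tcf12 at 0.31, and of the TBP family 0 of 2 passed. None of 7 tested TFIID and TFIIA genes passed, with a range from -0.42 to 0.35, and none of 2 tested LIM cofactor genes. Other oocyte transcription regulators counted 12 genes in the table and 11 tested, of which 0 passed and 2 were above 0. Stat3, which encodes a signal-activated transcription factor, was at -0.38, and 7 of 16 doxorubicin oocytes lay below the lowest control oocyte. Another 2 listed genes under the 5 CPM filter passed 2-fold without being tested: Ldb2, a LIM cofactor gene with 311 counts in control and 3 in doxorubicin oocytes, and Obox5, a homeobox gene with 110 counts from 1 doxorubicin oocyte and 0 in control oocytes.

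Between cell types, control oocytes exceeded control granulosa libraries more than 2-fold for all 7 genes, as they did for 29% of 12373 genes tested (60.3% passed in either direction). The control oocytes are the same libraries as in the comparison with doxorubicin. Sohlh2 had the widest gap, with 45788 counts against 12, a log2 ratio of 11.78 (10.97 to 12.73). Lhx8 followed at 6.95, Tbpl2 at 6.66, Nobox at 4.62, Figla at 3.22, Sohlh1 at 3.19 and Taf4b at 1.52. Cells did not overlap for Figla, Nobox, Sohlh2, Lhx8 and Tbpl2, a property of 3.25% of genes tested in this direction. They did overlap for Sohlh1 and Taf4b, where 13 and 1 of 16 control oocytes lay above the highest granulosa library. Without the 3 control granulosa libraries that had more oocyte than granulosa markers all 7 genes still passed 2-fold, with a median of 5.45 in place of 4.62. Without all 5 in which another cell type's markers led, the median was 5.18 and all 7 passed.

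**Figure D3:**
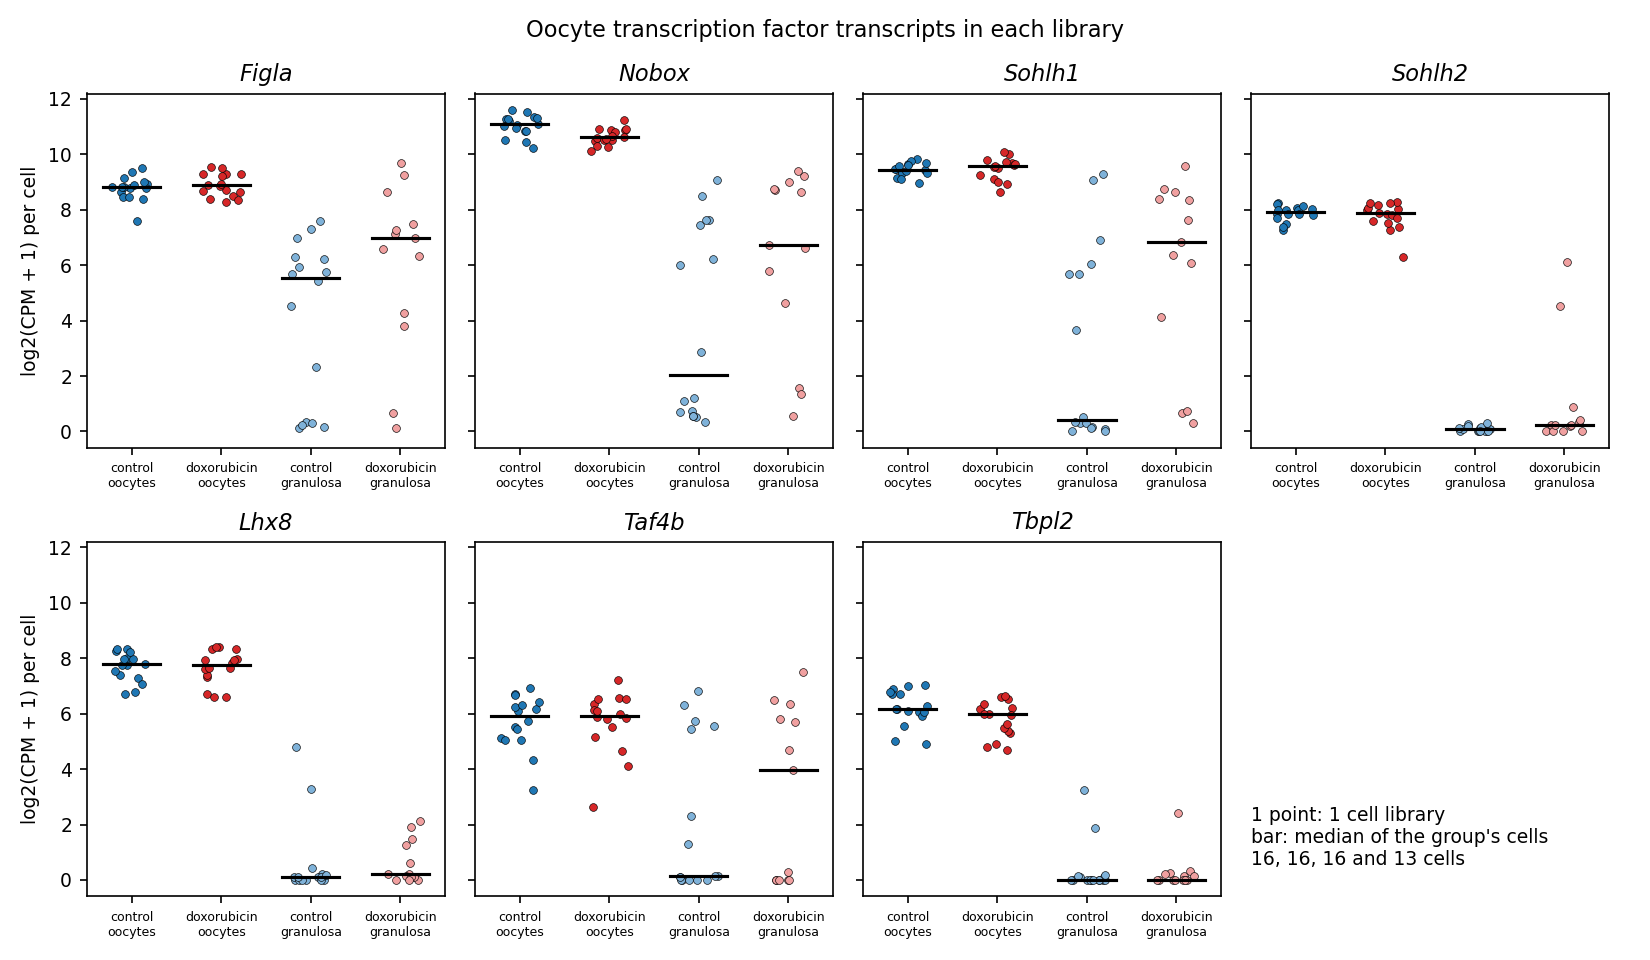
Level of each gene, as log2(CPM + 1), in every library (points), with the median of the cells in each group (bars), for 16 control and 16 doxorubicin oocytes and 16 control and 13 doxorubicin granulosa cells. Oocytes of the 2 treatments overlap for every gene, with a narrow spread for Sohlh1 and a wide one for Taf4b. Granulosa libraries split into high and near-0 libraries for Figla, Nobox, Sohlh1 and Taf4b, and sit near 0 for Sohlh2, Lhx8 and Tbpl2 with a few exceptions.

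Granulosa libraries held these transcripts in an uneven way. Figla ranged from 0.0868 to 190 CPM in control granulosa libraries with a median of 46.2, and from 0.0841 to 823 CPM with a median of 124 after doxorubicin. Nobox ranged from 0.276 to 540 CPM with a median of 3.797 in control, and from 0.468 to 675 CPM with a median of 106 after doxorubicin. Sohlh1 ranged from 0 to 624 CPM with a median of 0.348 in control, and from 0.243 to 770 CPM with a median of 113 after doxorubicin. After doxorubicin the highest Figla value lay above the doxorubicin oocytes' range, the highest Sohlh1 value within it and the highest Nobox value below it. In control libraries the highest Sohlh1 value also lay within the control oocytes' range, and the highest Figla and Nobox values lay below it. The lowest values are a few counts or none. Taf4b ranged from 0 to 111 CPM in control and from 0 to 180 CPM after doxorubicin, against highest values of 119 and 146 CPM in the oocytes.

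By contrast, Sohlh2 never exceeded 0.243 CPM in 16 control granulosa libraries, and 0 of 16 reached 5 counts. After doxorubicin its median was 0.185 CPM, and only libraries 10 and 13 stood out, at 68.1 and 22.03 CPM. Lhx8 reached 5 counts in 2 of 16 control and 5 of 13 doxorubicin libraries, with highest values of 26.5 and 3.42 CPM. Tbpl2 did so in 2 of 16 and 1 of 13, with highest values of 8.57 and 4.30 CPM. For comparison, at least 5 counts of Nobox were present in 15 of 16 and 13 of 13 libraries, and of Figla in 11 of 16 and 12 of 13.

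Oocyte markers in the same libraries give a scale for these levels, which the 7 genes followed unequally. The oocyte marker sum of granulosa libraries stood at 7.14% of the oocyte level in control and at 39.6% after doxorubicin. At those shares the oocytes' own ratio of each gene to the markers would give, over the control libraries, 32.6 CPM of Figla, where 49.2 was measured, 158 CPM of Nobox, where 89.8 was measured, and 50.8 CPM of Sohlh1, where 77.8 was measured. For Taf4b it would give 4.43 CPM, where 21.7 was measured. It would give 16.7 CPM of Sohlh2, where 0.0667 was measured, 16.1 CPM of Lhx8, where 1.82 was measured, and 5.89 CPM of Tbpl2, where 0.817 was measured. After doxorubicin the shares of the level at that ratio were 0.991 for Figla, 0.389 for Nobox, 0.667 for Sohlh1, 0.0702 for Sohlh2, 0.00922 for Lhx8, 1.54 for Taf4b and 0.0181 for Tbpl2. Oocyte markers were themselves uneven, from 0% to 31.6% of their oocyte levels in control and from 0.245% to 778% after doxorubicin.

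Some single libraries show the same split, and others do not. Doxorubicin granulosa library 1 had an oocyte marker sum of 47427 CPM, within the range of oocytes, and a granulosa marker sum of 1183 CPM. It held 823 CPM of Figla and 517 CPM of Nobox, but 0.830 CPM of Sohlh2, 1.76 CPM of Lhx8 and 0 counts of Tbpl2, whereas every oocyte held at least 77.5 CPM of Sohlh2, 95.3 of Lhx8 and 25.1 of Tbpl2. Doxorubicin granulosa library 6, with an oocyte marker sum of 35327 CPM, held 608 CPM of Figla and 3.42 CPM of Lhx8. Control granulosa library 8, with 16883 CPM of oocyte markers, held 540 CPM of Nobox and 0 counts of Sohlh2. Taf4b went the other way in some libraries: control granulosa library 2 had the lowest oocyte marker sum of its group, 524 CPM, and 111 CPM of Taf4b. Other libraries broke the split. Doxorubicin granulosa library 9, with 10561 CPM of oocyte markers, held 675 CPM of Nobox but 0.590 CPM of Figla and 0.674 CPM of Sohlh1. Doxorubicin granulosa library 10, with 16789 CPM of oocyte markers, held 68.1 CPM of Sohlh2. The source of oocyte transcripts in granulosa libraries was not tested.

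**Figure D4:**
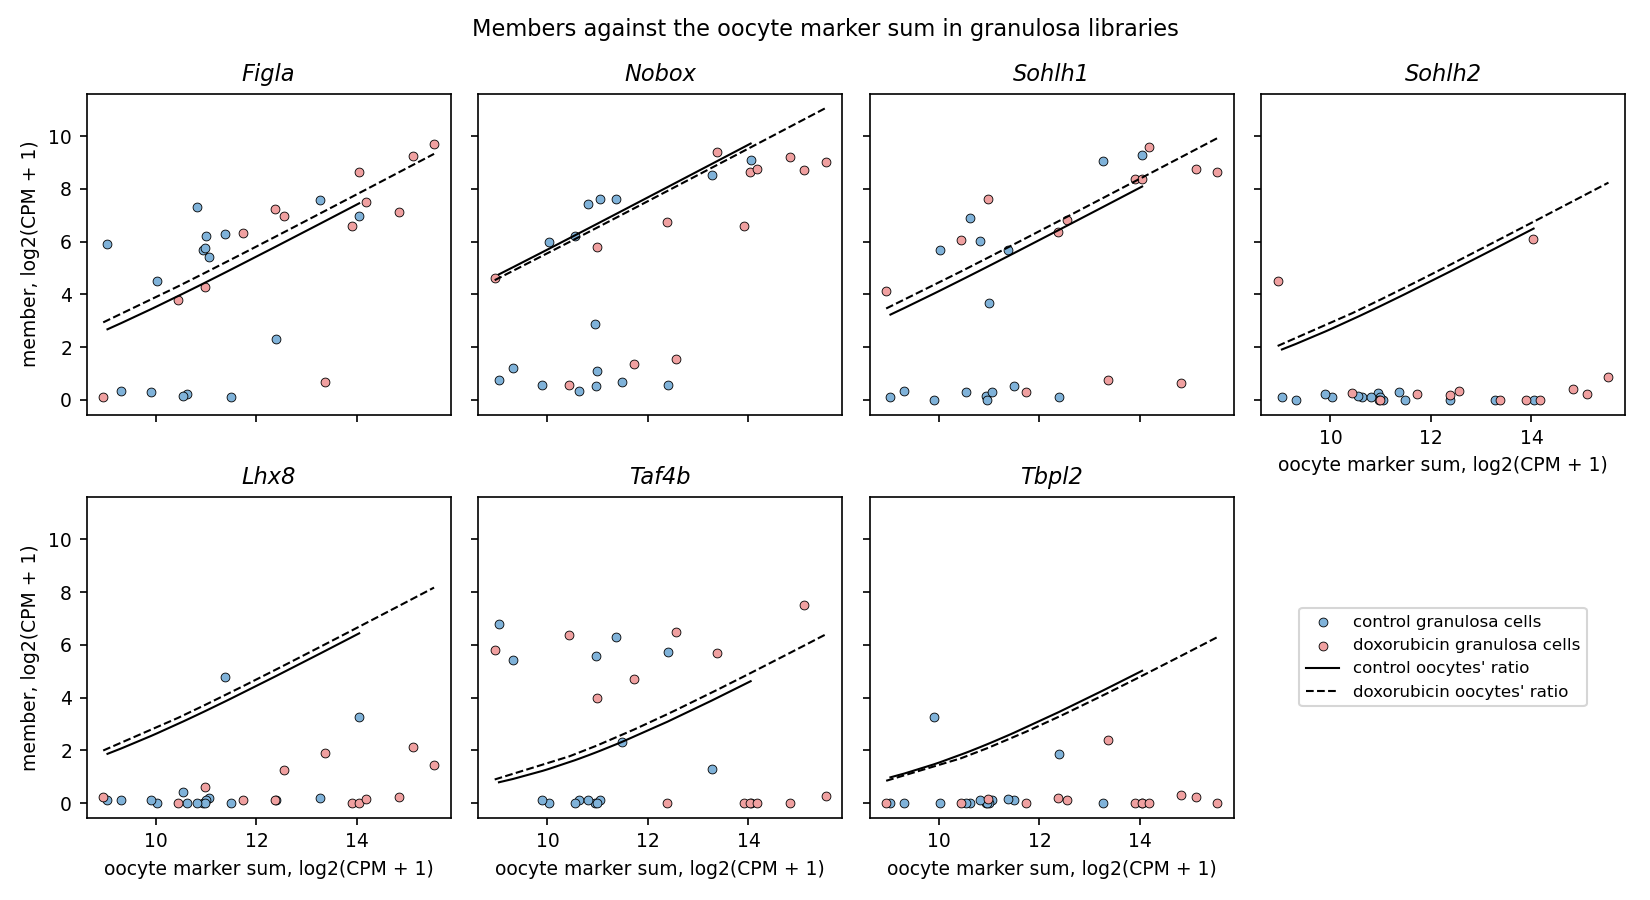
Level of each gene in granulosa libraries against the summed oocyte markers of the same library, both as log2(CPM + 1), for 16 control and 13 doxorubicin libraries. Lines give the level at the ratio measured in control and doxorubicin oocytes. Figla and Sohlh1 scatter around the lines or drop to near 0, and Nobox lies above them in only 4 of 16 control and 2 of 13 doxorubicin libraries. For Sohlh2, Lhx8 and Tbpl2 nearly all libraries lie below the lines. The Tbpl2 level at the oocytes' ratio itself reaches 5 CPM in only 4 of 16 control libraries, which leaves little room below it.

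Doxorubicin granulosa libraries were above control ones for Figla (191 against 49.2 CPM, log2 ratio 1.96), Nobox (250 against 89.8 CPM, 1.48), Sohlh1 (194 against 77.8 CPM, 1.31) and Sohlh2 (6.35 against 0.0667 CPM, 6.57). These 4 of 5 tested genes passed 2-fold upward, against 20.6% of 12194 genes tested (40.6% in either direction), and Taf4b was at 0.83. Lhx8 and Tbpl2 were under the 5 CPM filter in both groups, with ratios of -1.19 and -0.96. Of the 15 oocyte markers tested in the same comparison 15 passed 2-fold upward, with a median of 2.31, and the part of those transcripts in these 4 ratios was not tested. In the 5 doxorubicin and 13 control libraries with more granulosa than oocyte markers, Figla stood at 57.1 against 40.8 CPM (log2 ratio 0.49), Nobox at 38.4 against 50.4 CPM (-0.39), Sohlh1 at 67.0 against 21.7 CPM, Sohlh2 at 4.64 against 0.0803 CPM and Taf4b at 34.2 against 21.7 CPM (0.66). Of the 5 genes 2 then passed 2-fold, each through 1 library, and the summed Nobox level lay below control. Cell medians went the other way from the sums for Nobox, at 23.5 CPM after doxorubicin against 1.31 CPM in control. They also did for Figla, at 18.5 against 41.8 CPM. Doxorubicin library 13, with more stroma than granulosa markers, held 262 of the 268 Sohlh2 counts, and without it the log2 ratio was 0.70. Library 15, with many blood and immune transcripts, held 1881 of the 3869 Sohlh1 counts, and without it Sohlh1 stood at 41.3 CPM, a log2 ratio of 0.93. In the 3 doxorubicin and 11 control libraries with granulosa markers above those of every other type, a selection made after the data were seen, Figla was at 86.1 against 43.0 CPM (1.0016), Taf4b at 32.4 against 14.5 CPM (1.16), Sohlh1 at 49.5 against 26.2 CPM (0.92) and Nobox at 39.2 against 60.9 CPM (-0.64). Those values again rested on single libraries: without library 8 Figla was at 0.17, and without library 16 Taf4b was at -0.27. Library 8 also held 1394 of the 1418 Nobox counts after doxorubicin, and without it Nobox was at -5.87. Sohlh2 then had 6 counts after doxorubicin and 9 in control.

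Several granulosa values rested on 1 library. Library 10 held 68.6% of the Sohlh2 counts after doxorubicin, and the log2 ratio was 4.995 without it. Libraries 10 and 13 together held 885 of the 908 counts, and without both the log2 ratio was 1.498. Control library 15 held 66.7% of the Lhx8 counts of its group, and the log2 ratio of doxorubicin over control was 0.33 without it. For Sohlh1 the log2 ratio was 2.24 without control library 8 and 0.97, short of 2-fold, without doxorubicin library 12. For Nobox it was 2.07 without control library 8. For Taf4b it was 1.39, past 2-fold, without control library 2 and 0.31 without doxorubicin library 6. Tbpl2 ranged from -3.57 without doxorubicin library 9 to 0.92 without control library 16.

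Across single oocytes the 7 genes were only loosely related. Among 21 pairs, Spearman's rank correlation of CPM over 16 control oocytes had a median of 0.11, a range from -0.50 to 0.43, and no pair at 0.5 or more. For scale, between 2.02% (Nobox) and 6.70% (Taf4b) of 4505 genes reached 0.5 with a factor over control oocytes. That share was not computed for doxorubicin oocytes. Over 16 doxorubicin oocytes 3 pairs reached 0.5, and these were the 3 pairs among Sohlh1, Sohlh2 and Lhx8. Sohlh1 and Lhx8 had a rank correlation of 0.73 (Pearson's r of log2 values 0.73), against 0.43 in control oocytes. Sohlh2 and Lhx8 had 0.65 (r 0.62), against 0.17, and Sohlh1 and Sohlh2 had 0.51 (r 0.44), against 0.27. In the 13 doxorubicin oocytes with few granulosa transcripts the 3 values were 0.71, 0.77 and 0.58. Sohlh2 and Taf4b also passed 0.5 in those 13 cells, at 0.54, against 0.45 over all 16. These are descriptions over cells that share a scale fixed by each library's total, and the change between treatments was not tested.

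**Figure D5:**
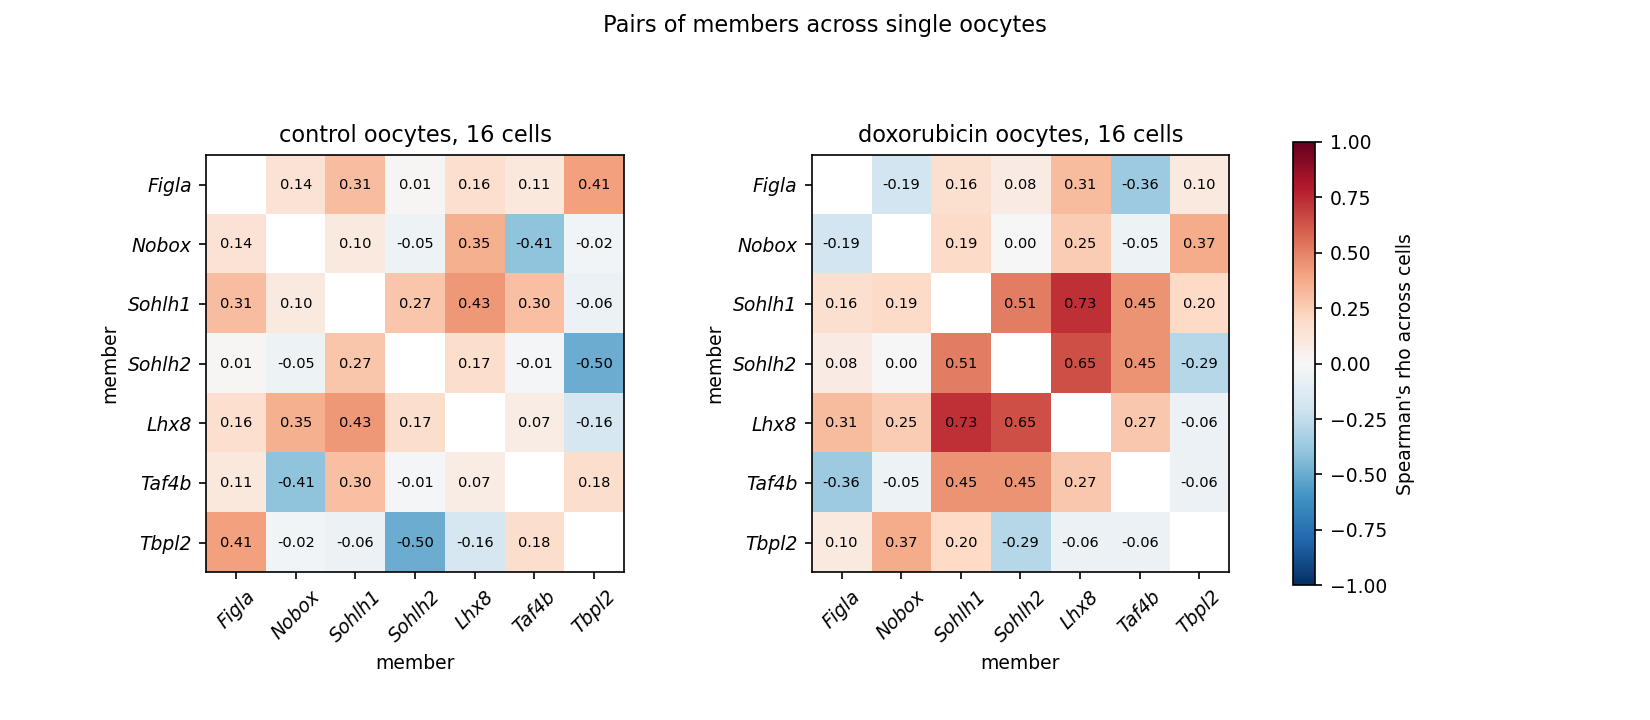
Spearman's rank correlation between each pair of the 7 genes over 16 control (left) and 16 doxorubicin oocytes (right), on a colour scale from -1 to 1. The block of Sohlh1, Sohlh2 and Lhx8 reaches 0.51 to 0.73 after doxorubicin, and no control pair reaches 0.5.

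The same 3 genes tended to be lower in doxorubicin oocytes with more Cdkn1a, the p53 target that encodes the cell-cycle inhibitor p21. The share of all genes with values like those below is not given here, so the values do not set the 3 genes apart. The rank correlation with Cdkn1a over 16 doxorubicin oocytes was -0.64 for Lhx8, -0.58 for Sohlh1, -0.56 for Sohlh2 and -0.45 for Figla, and was weaker for Tbpl2 at -0.14, Taf4b at -0.05 and Nobox at -0.03. Over control oocytes, where Cdkn1a had a median of only 16.1 CPM, the values were -0.33, -0.35, -0.27 and 0.12 for the first 4, and 0.56 for Tbpl2. Doxorubicin oocyte 4, with a p53 panel sum of 2573 CPM, had the lowest Sohlh1 level of its group, 394 CPM, and oocyte 15, with a panel sum of 203 CPM, had the highest, 1073 CPM. Not every cell followed: oocyte 12 had the second highest Cdkn1a level, 269 CPM, with 811 CPM of Sohlh1 and 237 CPM of Sohlh2, both above their medians, and oocyte 10, with 241 CPM of Cdkn1a, had 243 CPM of Lhx8. With the panel sum, of which Cdkn1a is 1 of 6 genes, the rank correlation was -0.77 for Sohlh1, -0.53 for Sohlh2 and for Lhx8, and -0.46 for Taf4b. In control oocytes the rank correlation with the panel sum was weak for Sohlh1 at 0.19, Sohlh2 at 0.19 and Lhx8 at 0.27. Pearson's r was 0.05, -0.08 and 0.31 there, so the sign for Sohlh2 depended on the measure. With the same sum in control oocytes, Figla had a rank correlation of -0.44 (r -0.51) and Nobox of 0.35. For Lhx8 in doxorubicin oocytes the granulosa marker sum also had a rank correlation of -0.45. That value was -0.18 without the 2 cells farthest from the median of that sum. With the total count of the library the rank correlation was -0.32 for Sohlh1, -0.13 for Sohlh2 and -0.03 for Lhx8, and -0.56, -0.45 and -0.28 without the 2 cells farthest from the median total. With Cdkn1a, the same omission for Cdkn1a gave -0.61, -0.51 and -0.54, and the part of depth in these values was not tested.

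No gene of the set tracked the zona pellucida transcripts closely in single oocytes. The rank correlation of Figla with the sum of Zp1, Zp2 and Zp3 was -0.23 in control and -0.29 in doxorubicin oocytes, and that of Nobox was 0.32 and 0.26. The remaining values lay between -0.43 and 0.41. Several moved when the 2 cells farthest from the median zona sum were left out: Tbpl2 in control oocytes went from -0.18 to -0.68, and Figla in doxorubicin oocytes from -0.29 to -0.60.

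Genes most like each factor over the 16 control oocytes were ranked among 4505 genes with at least 50 CPM and 5 counts in every cell. For Figla they were Stard10 (rank correlation 0.85), Ogfod2 (0.78) and Tep1 (0.76), and for Nobox BC017158 (0.84), Eef2k (0.81) and Dsn1 (0.76). For Sohlh1 they included Stard3 (0.81) and Ptpa (0.79), and for Sohlh2 Rbm46 (0.79), Zpr1 (0.79) and Wdr31 (0.72). Lhx8 had Dnajc21 (0.78), Wbp11 (0.77) and Rab3d (0.75), Taf4b had Atp2a2 (0.86), Ddx42 (0.85) and Uspl1 (0.84), and Tbpl2 had Ncaph2 (0.80), Ppa2 (0.79) and Acadvl (0.79). None of those named is another factor of the set, and since they were picked for a high rank correlation, these values are a description. In doxorubicin oocytes, which did not enter the ranking, 3 of the genes named kept a rank correlation of 0.5 or more: Rab3d with Lhx8 at 0.72, Ptpa with Sohlh1 at 0.59 and Rbm46, which encodes a germ-cell RNA-binding protein, with Sohlh2 at 0.51. The rest lay between -0.41 and 0.44.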

How the data were processed

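Each cell was lysed and its mRNA copied into amplified, full-length cDNA, per the labels' protocols. The values are estimated counts deposited as 1 table, 34.0% of the nonzero ones not whole. Partek, Bowtie2, HISAT2 and DESeq2 and the build mm10 are named in the submitters' processing notes, without roles. All 61 columns were matched by name. The series text says that raw data of doxorubicin oocyte 4 were lost, and its column was kept.

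Counts were rounded, summed over the cells of a group and divided by summed totals (CPM). Log2 ratios of group CPM set a group under 3 counts to 3 counts. Their 95% intervals are exact conditional binomial intervals. A gene counts as tested from 5 CPM upward in 1 of the groups, and a log2 ratio of at least 1 as past 2-fold. Detection means at least 5 counts. Zona, marker and p53 sums are sums of CPM. Correlations used CPM (Spearman's rank correlation) or log2(CPM + 1) (Pearson's r).

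The genes and lists were chosen with earlier results of these data known. Named are the 7 genes, listed genes past 2-fold in oocytes, 12 fixed genes and the 3 most like each factor, of which 1 is not reported here. Single libraries were named after their values were seen. On simulated data of 23927 genes with log2 changes of 2, the ratios recovered in oocytes were 1.96 and -2.01. Tools were Python 3.11.15, scipy 1.17.1, R 4.3.3, edgeR 4.0.16 and DESeq2 1.42.0, the last 2 for scaling factors only. Alternatives were other averages, scalings and filters, unrounded values, selected cells and leaving out each cell.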

Additional observations from a re-analysis of the deposited data

Results flagged for a closer look

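Nobox was below control in doxorubicin oocytes and above control in doxorubicin granulosa libraries, with log2 ratios of -0.44 and 1.48. Both directions held over leaving out each single cell, between -0.49 and -0.40 in oocytes and between 1.24 and 2.07 in granulosa libraries. The difference between the cell types was not tested. The oocyte marker sum of granulosa libraries stood at 7.14% of the oocyte level in control and 39.6% after doxorubicin, and in the granulosa libraries with fewer oocyte than granulosa markers the Nobox ratio was -0.39. Cell medians of Nobox in those libraries went the other way, at 23.5 CPM after doxorubicin against 1.31 CPM in control. Where granulosa markers exceeded those of every other listed cell type the Nobox ratio was -0.64. Doxorubicin library 8 held 1394 of the 1418 doxorubicin counts there, and without it the ratio was -5.87.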

How the results depend on the processing

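No paired analysis was possible because replicate numbers name single cells and no result comes from a test. In oocytes 0 of the 7 genes passed 2-fold after doxorubicin in any alternative run, and all 7 passed between control oocytes and control granulosa libraries in every one. The median log2 ratio in oocytes was -0.0045 with mean CPM of cells, 0.079 in oocytes under 200 CPM of granulosa and of stroma markers (10 doxorubicin, 9 control) and 0.0036 in those under 1000 CPM of granulosa markers, an alternative chosen after the data were seen, and lay between -0.066 and 0.016 over leaving out each cell. For doxorubicin over control granulosa libraries the median of 5 genes was 1.34 with mean CPM, 3.85 with cell medians, 0.66 in cells whose own markers exceeded the other type's (2 genes past 2-fold, with Nobox reversed at -0.39), 1.67 in cells at or above their group's median granulosa marker sum and 1.0016 in cells whose granulosa markers exceeded those of every other type (3 genes past 2-fold, Nobox reversed at -0.64), the last 2 chosen after the data were seen. Over leaving out each cell it lay between 1.36 and 2.11, with 3 to 5 genes past 2-fold. Both Nobox reversals are of summed counts. Where its ratio was -0.39, the cell medians of Nobox were 23.5 CPM after doxorubicin against 1.31 CPM in control. For control oocytes over control granulosa libraries the median was 4.42 with mean CPM, 7.68 with cell medians, 4.64 with TMM, 4.67 with DESeq2 factors, 5.45 in cells whose own markers exceeded the other type's, 5.18 in those whose granulosa markers exceeded every other type's and 4.58 in oocytes under 200 CPM of other markers, and lay between 4.51 and 5.21 over leaving out each cell. Detection in granulosa libraries, summed over genes, counted 154 pairs of gene and library at 1 count. The share of genes past 2-fold in oocytes was 34.0% without a filter and 2.34% at 50 CPM, against 8.75%. Of the 21 genes most like a factor, 6 were also chosen by Pearson's r. All 7 genes had at least 5 counts in every oocyte. In granulosa libraries values under 1 CPM rest on a few counts.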
